A study of Caenorhabditis elegans with 33 samples.

Results

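The response of mxl-2(tm1516) mutant Caenorhabditis elegans to RNA interference against daf-16 was taken from 6 of the 33 libraries of the series: 3 of mxl-2 animals on daf-16 RNAi and 3 of mxl-2 animals on the empty vector (EV), chosen by their labels and compared across all genes. Both groups were whole hermaphrodites at adult day 2 that carried the same mxl-2 allele and ate E. coli HT115(DE3). The bacteria made double-stranded RNA against daf-16 or carried only the vector L4440. Larvae grew at 16 °C, and from the L4 stage on both groups were held at 20 °C with 5-fluorodeoxyuridine, which prevents progeny. Each library came from its own synchronised population of about 3000 pooled animals. The same treatments in N2, the wild type, served as a second comparison with no shared sample. Libraries of the double mutant eat-2(ad465);mxl-2(tm1516) on daf-16 RNAi, pha-4 RNAi and EV, 3 of each, are set beside them for far-3 and at the end.

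DAF-16, a FOXO transcription factor, is the main output of insulin signalling. Signalling from the receptor DAF-2 through the AKT kinases keeps it out of the nucleus, and when signalling falls it activates genes of stress resistance, fat and carbohydrate metabolism and defence, many of them in the intestine. MXL-2 is a Max-like partner of the Myc-family factor MML-1. Feeding bacteria that make double-stranded RNA lowers a transcript without removing it.

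The targeted transcript was lower in every daf-16 RNAi library. daf-16 (WBGene00000912, chromosome I, 10750498 to 10776703) had 105.4, 76.9 and 115.4 CPM (read counts scaled to library size) in mxl-2 on daf-16 RNAi, against 200.9, 198.7 and 158.6 CPM in mxl-2 on EV. The groups did not overlap, and the log2 fold change was -0.91 ± 0.28 (SE), but the edgeR adjusted p over all genes was 0.167. In N2, daf-16 had 85.8, 67.8 and 66.9 CPM on daf-16 RNAi and 135.2, 169.5 and 159.6 CPM on EV, a log2 fold change of -1.07 ± 0.28 (SE, adjusted p = 0.141, edgeR). The difference between the strains was 0.17 ± 0.39 (SE, mxl-2 minus N2, adjusted p = 0.992, edgeR). mxl-2 itself was at 3.21 to 5.83 CPM in mxl-2 on daf-16 RNAi and at 4.51 to 5.45 CPM in mxl-2 on EV, while N2 on EV averaged 62.3 ± 8.45 CPM (SD, n = 3).

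One library in each group stood apart. The 31 major sperm protein genes, a marker of sperm, summed to 2161, 7.41 and 2333 CPM in daf-16 RNAi replicates 1, 2 and 3, against 2266, 1569 and 14.6 CPM in EV replicates 1, 2 and 3. Across genes, log2 CPM correlated (Pearson) at 0.993 between daf-16 RNAi replicates 1 and 3 and 0.989 between EV replicates 1 and 2. daf-16 RNAi replicate 2 correlated at 0.985 with EV replicate 3 and at 0.828 and 0.817 with the other libraries of its own group. Total counts were alike, at 26.5 M to 31.3 M. Markers of intestine, body wall muscle, neurons, hypodermis and the pharynx were detected in all 6 libraries, with at most 1 gene of a list at 0 reads in a library. Their levels differed. The pharynx list summed to 203.8, 36.65 and 313.0 CPM on daf-16 RNAi and 432.7, 239.4 and 36.75 CPM on EV, in order of replicate. Mean log2 CPM of the hypodermis list was 7.75, 2.54 and 7.86 on daf-16 RNAi and 5.72, 5.73 and 3.52 on EV. The intestine list varied less, at 7.63, 7.16 and 7.68 on daf-16 RNAi and 7.27, 7.16 and 7.72 on EV. In whole animals, fewer cells of a type and less RNA per cell cannot be told apart.

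On daf-16 RNAi, 22 of 17354 genes tested in mxl-2 passed an edgeR adjusted p of 0.05, which is 0.127%. Of these, 16 fell (0.0922%) and 6 rose (0.0346%). At an unadjusted p under 0.05 there were 1622 (9.35%). The genes that fell encode a metallothionein, detoxification enzymes, a lysozyme, a saposin-like peptide, a linker histone and a mitochondrial transhydrogenase among others. All 16 were below every EV library in each of the 3 daf-16 RNAi libraries, a pattern that 6.99% of all genes showed. Because the 16 were called on these same libraries, their separation is not separate evidence. The count depended on daf-16 RNAi replicate 2: it was 1118 without that library (6.45%; 2.82% lower and 3.64% higher), 656 without both libraries low in sperm transcripts (3.79%), and 4 to 159 without any other single library. All 22 genes passed also in the first 2 of these fits, in the same direction. With the 2 groups fitted alone, 0 genes were called, and with replicate number as a block 6 were.

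mtl-1 (WBGene00003473, chromosome V, 6691371 to 6691863), a metallothionein that binds heavy metals, had 0.788, 7.01 and 0.522 CPM on daf-16 RNAi and 47.7, 95.3 and 142.1 CPM on EV. Replicate 2 was the highest of the daf-16 RNAi libraries and still lay far below the lowest EV library. The log2 fold change was -5.10 ± 0.80 (SE, adjusted p = 0.00415, edgeR), and -7.17 without daf-16 RNAi replicate 2. dod-3 (WBGene00016052, chromosome V, 2730622 to 2731098), named as a gene downstream of DAF-16, had 4.22, 13.5 and 3.86 CPM on daf-16 RNAi, against 76.0, 82.5 and 86.4 CPM on EV. It fell by 3.51 ± 0.59 on the log2 scale (SE, adjusted p = 0.00908, edgeR). nnt-1 (WBGene00003778, chromosome X, 6122311 to 6127554), the mitochondrial nicotinamide nucleotide transhydrogenase, had 7.41, 17.5 and 10.5 CPM on daf-16 RNAi and 70.4, 73.9 and 53.3 CPM on EV, a log2 fold change of -2.48 ± 0.49 (SE, adjusted p = 0.0310, edgeR). hil-1 (WBGene00001852, chromosome V, 14949777 to 14952799), a linker histone of the H1 family, had 82, 155 and 105 reads on daf-16 RNAi and 515, 846 and 356 reads on EV, a log2 fold change of -2.29 ± 0.46 (SE, adjusted p = 0.0369, edgeR). In each of these 3 genes, too, replicate 2 was the highest of the daf-16 RNAi libraries without reaching the EV range.

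A pair of detoxification genes fell in every one of the 6 fits that left out a library. gst-29 (WBGene00001777, chromosome II, 15168538 to 15169861), a glutathione S-transferase, had 0.709, 0.607 and 0.603 CPM on daf-16 RNAi and 6.57, 9.08 and 8.07 CPM on EV. The 3 daf-16 RNAi libraries were close together, and the log2 fold change was -3.62 ± 0.45 (SE, adjusted p = 3.44e-04, edgeR). cyp-35B1 (WBGene00019472, chromosome V, 3939032 to 3941237), a cytochrome P450, had 1, 3 and 2 reads on daf-16 RNAi, against 46, 82 and 19 reads on EV. Its summed reads, scaled by library size, were at 0.0408 of the EV level (exact 95% interval 0.0147 to 0.0910, counting error only; adjusted p = 3.44e-04, edgeR), and other genes cover 6.19% of its exons.

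A pair of genes from antimicrobial families also fell. lys-7 (WBGene00003096, chromosome V, 3481432 to 3482600), an antibacterial lysozyme, had 32.2, 11.3 and 45.4 CPM on daf-16 RNAi and 169.7, 178.5 and 84.5 CPM on EV. It fell by 2.28 ± 0.45 on the log2 scale (SE, adjusted p = 0.0310, edgeR). spp-2 (WBGene00004987, chromosome X, 7315995 to 7316818), a saposin-like peptide, had 14.1, 57.1 and 27.6 CPM on daf-16 RNAi and 208.1, 222.9 and 106.5 CPM on EV, and fell by 2.44 ± 0.47 on the log2 scale (SE, adjusted p = 0.0227, edgeR). In both genes EV replicate 3 was the lowest EV library, yet above all of daf-16 RNAi. try-9 (WBGene00023425), a trypsin-like protease, had 4, 0 and 1 reads on daf-16 RNAi and 51, 83 and 8 reads on EV, a log2 fold change of -4.68 ± 0.85 (SE, adjusted p = 0.0151, edgeR). Exons of other genes cover 10.5% of it.

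Among genes known by a sequence name only, T12D8.5 (WBGene00011733) had 13.3, 30.5 and 15.4 CPM on daf-16 RNAi and 129.7, 170.1 and 97.3 CPM on EV. Its log2 fold change was -2.74 ± 0.37 (SE, adjusted p = 4.41e-04, edgeR), and it passed in all 6 fits without a library. Y54G2A.36 (WBGene00021898) did so too, with 5.52, 7.69 and 6.91 CPM on daf-16 RNAi and 22.98, 26.4 and 45.6 CPM on EV, a log2 fold change of -2.24 ± 0.30 (SE, adjusted p = 4.41e-04, edgeR). Other genes cover 47.7% of its exons, so its value is uncertain. Y6G8.2 (WBGene00012404) had 1.02, 2.47 and 1.97 CPM on daf-16 RNAi and 19.1, 22.7 and 17.5 CPM on EV (log2 fold change -3.44 ± 0.60, SE, adjusted p = 0.0108, edgeR). Y48G1A.2 (WBGene00021658) changed least, with 20.8, 26.04 and 17.6 CPM on daf-16 RNAi and 38.9, 42.3 and 43.8 CPM on EV, a log2 fold change of -0.96 ± 0.17 (SE, adjusted p = 0.0151, edgeR). The 3 other genes that fell had at most 2 reads in any daf-16 RNAi library. The summed reads on daf-16 RNAi and on EV were 5 against 85 for Y34F4.2 and 1 against 28 for F36G9.7 (17.8% covered by other genes), and the chitinase-like pseudogene chil-28 had 0, 1 and 1 reads on daf-16 RNAi and 42, 65 and 17 on EV. As a share of the EV level, scaled by library size, Y34F4.2 was at 0.0588 (exact 95% interval 0.0186 to 0.143), F36G9.7 at 0.0357 (0.000873 to 0.216) and chil-28 at 0.0161 (0.00193 to 0.0595), for counting error only, with adjusted p of 0.0104, 0.0257 and 0.0121 by edgeR.

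**Figure D1:**
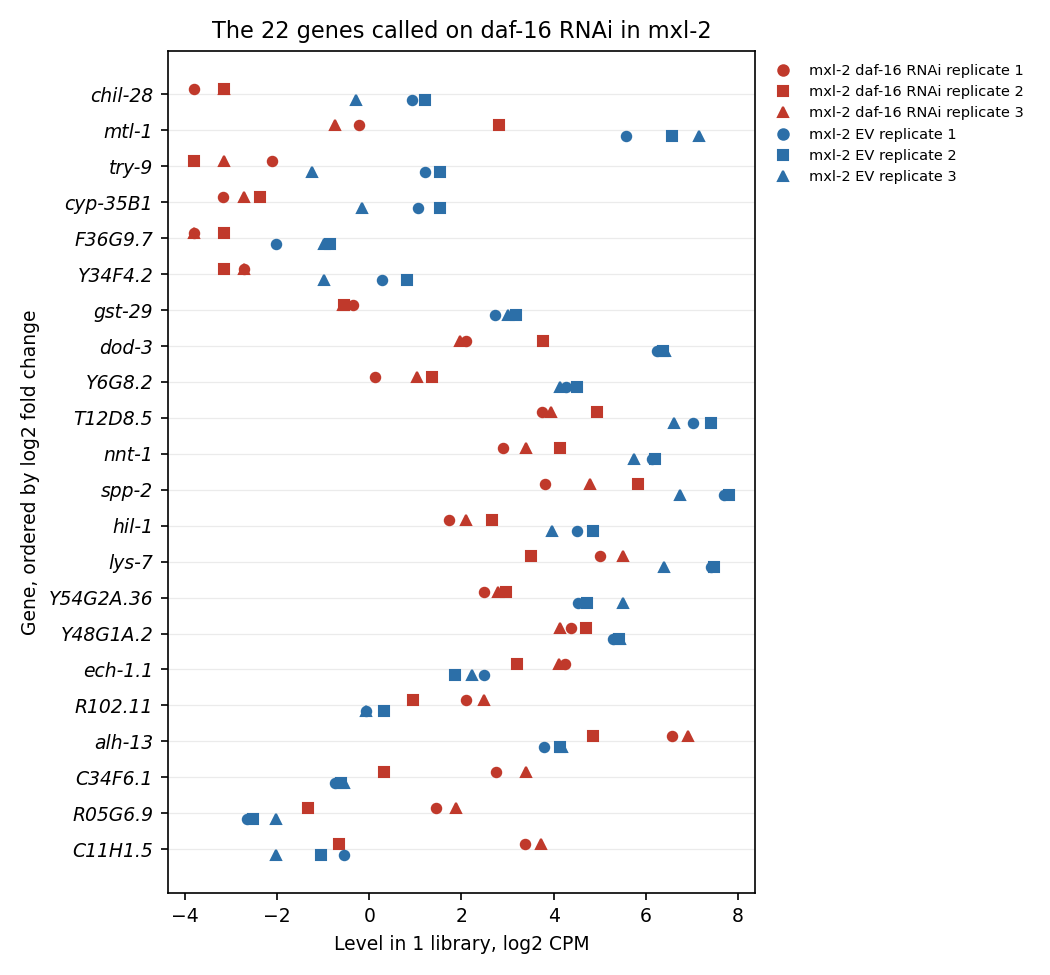
Level of the 22 genes that passed an edgeR adjusted p of 0.05, in log2 CPM, with 1 point for each of the 6 mxl-2 libraries; rows run from the lowest log2 fold change at the top to the highest at the bottom. All 16 genes that fell have the 3 daf-16 RNAi points left of the 3 EV points, and in the 6 genes that rose daf-16 RNAi replicate 2 lies closest to EV.

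The 6 genes that rose did so mainly in 2 libraries. alh-13 (WBGene00011938, chromosome X, 12782394 to 12787147), an aldehyde dehydrogenase family member, had 94.9, 28.7 and 120.1 CPM on daf-16 RNAi and 13.9, 17.5 and 18.2 CPM on EV. Replicate 2 was low among the daf-16 RNAi libraries but above every EV library, and the log2 fold change was 2.30 ± 0.38 (SE, adjusted p = 0.00843, edgeR). ech-1.1 (WBGene00001150, chromosome V, 15357664 to 15361512), an enoyl-CoA hydratase of mitochondrial fatty acid oxidation, had 18.96, 9.19 and 17.2 CPM on daf-16 RNAi and 5.52, 3.53 and 4.58 CPM on EV. Its log2 fold change was 1.73 ± 0.35 (SE, adjusted p = 0.0327, edgeR). C34F6.1 had 6.70, 1.17 and 10.5 CPM on daf-16 RNAi and 0.525, 0.583 and 0.610 CPM on EV, a log2 fold change of 3.41 ± 0.63 (SE, adjusted p = 0.0162, edgeR). R05G6.9 had 2.64, 0.324 and 3.62 CPM on daf-16 RNAi and 0.0876, 0.103 and 0.174 CPM on EV (log2 fold change 4.13 ± 0.75, SE, adjusted p = 0.0151, edgeR). R102.11, 39.3% of whose exons other genes cover, had 4.18, 1.86 and 5.58 CPM on daf-16 RNAi and 0.876, 1.17 and 0.872 CPM on EV (log2 fold change 1.99 ± 0.40, SE, adjusted p = 0.0362, edgeR). These 5 genes did not overlap between the groups, a pattern that 4.11% of all genes showed in this direction. They too were called on the same libraries. C11H1.5 overlapped, with 10.3, 0.567 and 13.1 CPM on daf-16 RNAi and 0.613, 0.411 and 0.174 CPM on EV (log2 fold change 4.30 ± 0.80, SE, adjusted p = 0.0162, edgeR). Each of the 6 passed in 2 of the 6 fits without a library, and none fell below 0 in any fit.

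A list of 19 genes known to be activated by DAF-16 was lower as a whole. Of these, 4 fell (mtl-1, dod-3, nnt-1 and hil-1, described above), none rose, and 18 had a log2 fold change below 0. The median was -1.64, beside 0.01 over all genes tested. In 14 of the 19, the 3 daf-16 RNAi libraries lay below the 3 EV libraries, as in 6.99% of all genes. The mean log2 CPM of the list was 2.98, 3.31 and 3.22 in daf-16 RNAi replicates 1, 2 and 3, against 5.01, 5.44 and 4.71 in EV replicates 1, 2 and 3. The libraries low in sperm transcripts, daf-16 RNAi replicate 2 and EV replicate 3, thus each lay with their own group. Without both of them, 8 members fell, where 1.40% of all genes did.

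Several members of that list did not pass the threshold although their groups did not overlap. icl-1 (WBGene00001564), the enzyme of the glyoxylate shunt, had 465.8, 772.0 and 750.1 CPM on daf-16 RNAi and 2739.5, 2345.2 and 1090.2 CPM on EV. Its log2 fold change was -1.64 ± 0.38 (SE, adjusted p = 0.0572, edgeR). lea-1 (WBGene00002263), a desiccation-protective LEA protein, had 429.1, 268.3 and 507.8 CPM on daf-16 RNAi and 1598.8, 1685.6 and 1491.6 CPM on EV (log2 fold change -1.99 ± 0.51, SE, adjusted p = 0.0919, edgeR). Here daf-16 RNAi replicate 2 was the lowest library. ftn-1 (WBGene00001500), a ferritin that stores iron, had 0.158, 1.46 and 0.281 CPM on daf-16 RNAi and 2.54, 18.9 and 5.36 CPM on EV (log2 fold change -3.82 ± 0.96, SE, adjusted p = 0.0832, edgeR). aakg-4, a gamma subunit of AMP-activated kinase, had 5.36, 3.24 and 5.91 CPM on daf-16 RNAi and 14.9, 19.6 and 7.37 CPM on EV (log2 fold change -1.53 ± 0.37, SE, adjusted p = 0.0725, edgeR). fat-5, a fatty acid desaturase, had 20.1, 34.6 and 22.5 CPM on daf-16 RNAi and 59.4, 90.7 and 43.1 CPM on EV (log2 fold change -1.32 ± 0.37, SE, adjusted p = 0.125, edgeR).

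sod-3 (WBGene00004932), the mitochondrial superoxide dismutase widely used as a reporter of DAF-16, had 4.85, 0.931 and 4.86 CPM on daf-16 RNAi and 8.32, 9.87 and 11.5 CPM on EV. The groups did not overlap, at a log2 fold change of -1.48 ± 0.64 (SE, adjusted p = 0.419, edgeR). In N2 the value was -2.94 ± 0.68, and the difference of 1.46 ± 0.90 (SE) did not pass (adjusted p = 0.992, edgeR). The small heat shock protein genes gave -2.57 ± 0.89 for hsp-12.6 and -1.18 ± 0.50 for sip-1 on the log2 scale (SE), with adjusted p of 0.230 and 0.384 by edgeR. hsp-12.3 had 3.78, 4.86 and 3.21 CPM on daf-16 RNAi and 16.37, 21.7 and 12.9 CPM on EV (adjusted p = 0.330, edgeR). Exons of other genes cover 10.1% of sod-3 and 19.2% of sip-1. Of the rest of the list, sod-5 was at -1.87, pck-1, the gluconeogenic enzyme PEP carboxykinase, at -0.95, and the catalases ctl-1 and ctl-2 at -0.71 and -0.64. Their adjusted p by edgeR ran from 0.296 to 0.743. The values of dod-6 (-0.03) and old-1 (0.31) were within 1 SE of 0.

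**Figure D2:**
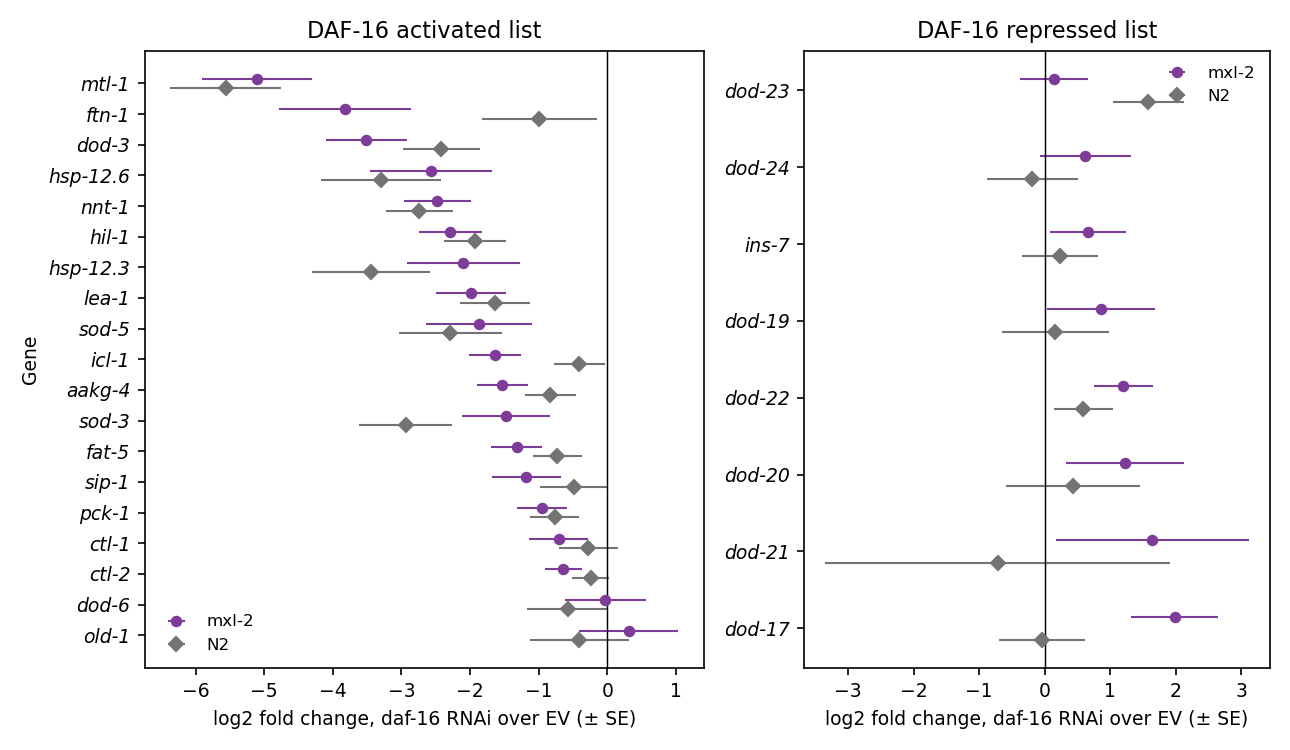
Log2 fold change of daf-16 RNAi over EV with its standard error, in mxl-2 and in N2, for the 19 genes of the DAF-16 activated list and the 8 genes of the DAF-16 repressed list. In mxl-2, 18 of the 19 activated genes lie below 0 and all 8 repressed genes above it.

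A list of 8 genes known to be repressed by DAF-16 gave no call. All 8 were above 0, with a median log2 fold change of 1.03, and in 7 of them the groups overlapped. The list's mean log2 CPM was 4.70, 4.84 and 4.65 in daf-16 RNAi replicates 1, 2 and 3, against 2.51, 2.12 and 4.77 in EV replicates 1, 2 and 3. EV replicate 3 was thus at the level of daf-16 RNAi. dod-24 had 359.9, 486.9 and 306.1 CPM on daf-16 RNAi and 90.4, 65.3 and 596.0 CPM on EV. dod-19 had 340.2, 220.8 and 349.5 CPM on daf-16 RNAi and 50.6, 34.9 and 415.2 CPM on EV. dod-22 alone did not overlap, a pattern that 4.11% of all genes showed in this direction. It had 31.8, 18.1 and 31.45 CPM on daf-16 RNAi and 8.89, 11.3 and 15.2 CPM on EV (log2 fold change 1.20 ± 0.45, SE, adjusted p = 0.292, edgeR). dod-17 was at 1.98 ± 0.66 (log2, SE, adjusted p = 0.206, edgeR) and rose by 3.33 without both libraries low in sperm transcripts (adjusted p = 0.0119, edgeR). ins-7, an insulin-like peptide, was at 0.66 ± 0.58 (log2, SE, adjusted p = 0.926, edgeR).

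Genes of the larval cuticle and of molting were high in daf-16 RNAi replicates 1 and 3 and low in replicate 2. None of the 27 genes of the list passed, all 27 were above 0, and the median log2 fold change was 2.61. The list's mean log2 CPM was 5.80, 1.66 and 6.09 in daf-16 RNAi replicates 1, 2 and 3, against 3.06, 3.30 and 1.73 in EV replicates 1, 2 and 3. Replicates 1 and 3 lay above all EV libraries in 21 of the 27 genes, as in 26.7% of all genes, and replicate 2 lay below all of them in 12, as in 26.8% of all genes. The low libraries of the 2 groups, daf-16 RNAi replicate 2 and EV replicate 3, were those low in sperm transcripts, whose part in the result was not tested. Without daf-16 RNAi replicate 2, 16 members rose (3.64% of all genes did), and without both low libraries 11 did (2.39% of all genes). In N2 the median of the same list was -0.09, with no call.

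The 8 highest calls that the naming rule took from the fit without daf-16 RNAi replicate 2 were all cuticle genes. sqt-1 (WBGene00005016), a cuticle collagen that shapes the body, had 222.9, 0.283 and 267.9 CPM on daf-16 RNAi and 11.3, 8.81 and 0.610 CPM on EV. Its log2 fold change was 4.57 ± 1.30 over all libraries (SE, adjusted p = 0.130, edgeR) and 5.15 without replicate 2 (adjusted p = 0.00376, edgeR). lon-3 (WBGene00003057), a collagen that limits body length, had 2516, 9 and 2987 reads on daf-16 RNAi and 70, 65 and 9 reads on EV (5.27 ± 1.37, log2, SE, adjusted p = 0.0948, edgeR over all libraries). bli-1, a collagen of the adult cuticle struts, had 140.1, 0.283 and 192.0 CPM on daf-16 RNAi and 5.12, 4.97 and 0.480 CPM on EV. In these 3 genes daf-16 RNAi replicates 1 and 3 lay above every EV library. The naming rule took only genes in which replicates 1 and 3 did not overlap with EV. Their separation, in all 8 genes, is therefore not separate evidence. Replicate 2 lay below every EV library in sqt-1 and bli-1. In lon-3 it had as many reads as EV replicate 3 (0.364 against 0.392 CPM). The others were rol-6, rol-8, sqt-2, bli-2 and the cuticlin cut-2, at 4.62 to 4.91 on the log2 scale over all libraries with edgeR adjusted p between 0.0814 and 0.227. Their levels in daf-16 RNAi replicates 1 and 3 were 108.5 to 212.1 CPM, and no EV library exceeded 6.74 CPM.

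**Figure D3:**
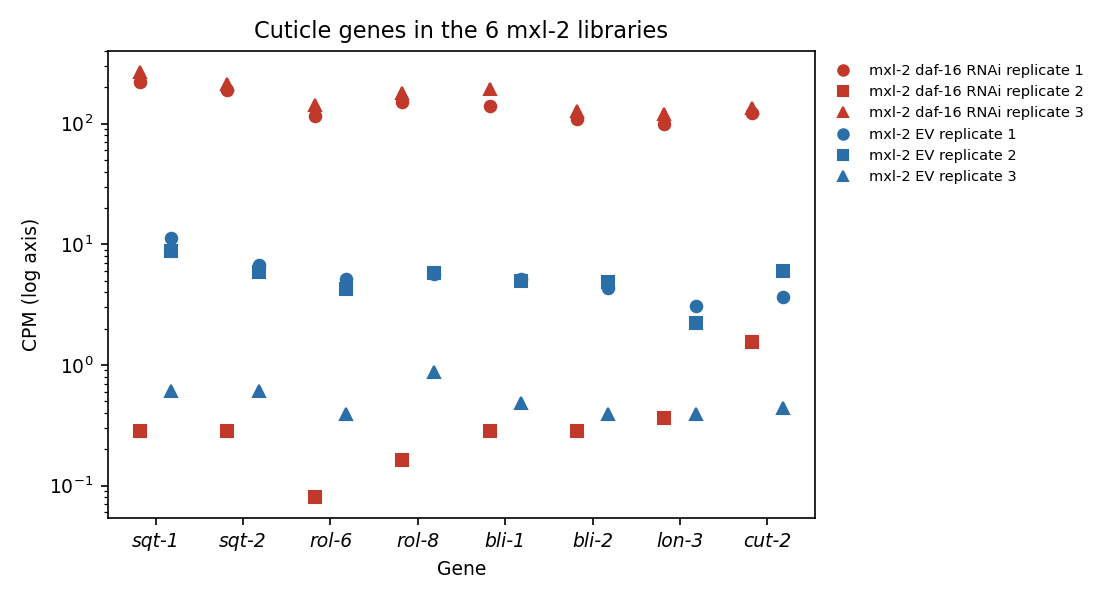
CPM on a logarithmic axis of the 8 cuticle genes with the highest log2 fold changes in the fit without daf-16 RNAi replicate 2, with 1 point for each of the 6 mxl-2 libraries. daf-16 RNAi replicates 1 and 3 lie near or above 100 CPM, EV replicates 1 and 2 near or below 10 CPM, and daf-16 RNAi replicate 2 and EV replicate 3 lowest. The genes were chosen for no overlap of daf-16 RNAi replicates 1 and 3 with EV.

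The wider collagen and astacin protease families gave no call and had medians above 0. Of 144 col-family collagens, none passed, 98 were above 0, and the median log2 fold change was 1.62. daf-16 RNAi replicates 1 and 3 lay above all EV libraries in 91 of them (26.7% of all genes) and replicate 2 below all EV libraries in 93 (26.8% of all genes). The 33 astacin metalloproteases, secreted enzymes of which some act in molting, had a median of 1.07 and no call. In the astacin family, daf-16 RNAi replicates 1 and 3 lay above all EV libraries in 18 genes (26.7% of all genes). Replicate 2 lay below all EV libraries in 11 (26.8% of all genes) and above them in 6 (28.9% of all genes). nas-23 had 3.67, 0.729 and 4.94 CPM on daf-16 RNAi and 0.394, 0.343 and 0.174 CPM on EV (log2 fold change 3.33 ± 0.72, SE, adjusted p = 0.0572, edgeR). The molting genes mlt-10 and qua-1 were at 3.39 ± 0.75 and 4.37 ± 0.99 (log2, SE), both with an edgeR adjusted p of 0.0572. mlt-10 had 125.7, 5.31 and 166.1 CPM on daf-16 RNAi and 10.3, 12.4 and 5.58 CPM on EV. Without daf-16 RNAi replicate 2, 47 col genes rose and 3 fell, and 12 astacin genes rose. Of all genes, 3.64% rose and 2.82% fell in that fit.

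**Figure D4:**
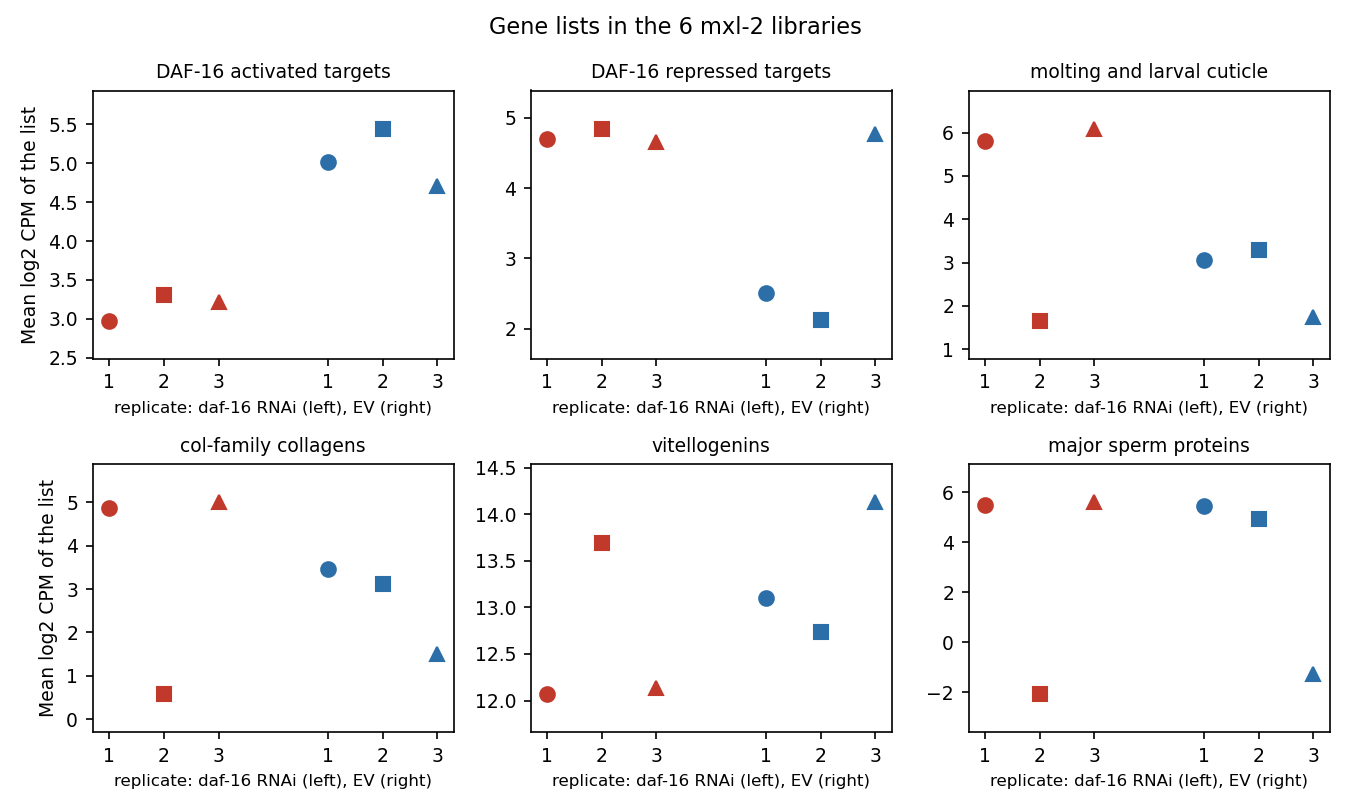
Mean log2 CPM of 6 gene lists in each of the 6 mxl-2 libraries, daf-16 RNAi replicates 1 to 3 on the left of each panel and EV replicates 1 to 3 on the right. The DAF-16 activated list separates the groups in every library, while in the other 5 lists daf-16 RNAi replicate 2 or EV replicate 3 lies apart from its own group.

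At the other end, the same fit named mtl-1, ftn-1 and 6 genes in which daf-16 RNAi replicate 2 was by far the highest library of its group. lipl-1 (WBGene00010062), a lysosomal lipase induced by fasting, had 1.58, 17.5 and 1.77 CPM on daf-16 RNAi and 23.3, 75.9 and 12.29 CPM on EV. tts-1, a long noncoding RNA, had 11.7, 447.9 and 34.9 CPM on daf-16 RNAi and 460.5, 954.4 and 153.0 CPM on EV. ilys-3, an invertebrate-type lysozyme, had 0 reads, 7.69 CPM and 0.321 CPM on daf-16 RNAi and 9.81, 13.03 and 1.18 CPM on EV. pud-4, math-38 and dpy-14 completed the 6. dpy-14, a collagen gene, had 2.01, 67.9 and 1.85 CPM on daf-16 RNAi and 18.9, 49.1 and 55.9 CPM on EV. Without daf-16 RNAi replicate 2 its log2 fold change was -4.42 (adjusted p = 0.00148, edgeR), opposite in direction to the 8 cuticle genes above. Of the 5 that are not pud-4, all overlapped between the groups over all libraries, with edgeR adjusted p of 0.169 to 0.979.

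Genes of the insulin pathway were mostly below 0 without a call. Of 16 genes, daf-16 included, 15 were below 0 and in 8 all daf-16 RNAi libraries lay below EV, as in 6.99% of all genes. The median log2 fold change was -0.26. akt-2 (WBGene00000103), one of the kinases that phosphorylate DAF-16, had 11.6, 15.8 and 13.2 CPM on daf-16 RNAi and 28.2, 25.7 and 24.3 CPM on EV. Its log2 fold change was -0.95 ± 0.22 (SE, adjusted p = 0.0572, edgeR), and in N2 it fell by 1.44 ± 0.22 (SE, adjusted p = 0.00142, edgeR). ist-1, the insulin receptor substrate, had 4.45, 2.51 and 6.15 CPM on daf-16 RNAi and 12.5, 11.5 and 7.37 CPM on EV (log2 fold change -1.26 ± 0.36, SE, adjusted p = 0.132, edgeR). daf-2, the receptor, had 94.6, 109.9 and 107.3 CPM on daf-16 RNAi and 254.3, 237.5 and 119.7 CPM on EV (log2 fold change -0.97 ± 0.37, SE, adjusted p = 0.299, edgeR), with EV replicate 3 near the daf-16 RNAi level.

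The 7 genes of the Myc-family network were all below 0 and none passed; their median log2 fold change was -0.36. mdl-1, the Mad-like member, had 38.2, 61.1 and 43.3 CPM on daf-16 RNAi and 86.5, 92.5 and 74.6 CPM on EV (log2 fold change -0.83 ± 0.27, SE, adjusted p = 0.187, edgeR). mxl-1, its Max-like partner, had 32.6, 38.6 and 26.7 CPM on daf-16 RNAi and 46.1, 44.6 and 43.6 CPM on EV (-0.45 ± 0.15, log2, SE, adjusted p = 0.185, edgeR). Both passed without daf-16 RNAi replicate 2 (adjusted p = 0.0346, edgeR and 0.0260). mml-1, the partner of MXL-2, had 38.1, 42.6 and 41.9 CPM on daf-16 RNAi and 59.6, 59.3 and 49.4 CPM on EV (-0.46 ± 0.27, log2, SE, adjusted p = 0.719, edgeR). In N2, mml-1 was at 0.22 ± 0.27, and the difference between the strains of -0.68 ± 0.38 (SE) did not pass (adjusted p = 0.992, edgeR). sbp-1, the sterol regulatory factor, did not overlap either, at -0.36 ± 0.35 (adjusted p = 0.954, edgeR), and mxl-3 and hlh-30 overlapped at -0.20 and -0.23.

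In genes of autophagy and yolk, daf-16 RNAi replicate 2 lay apart from the rest of its group, and no gene of these lists passed. Of 24 autophagy genes, 23 were below 0 (median -0.22) and none passed. daf-16 RNAi replicates 1 and 3 lay below all EV libraries in 21 of them (30.3% of all genes) and replicate 2 above all EV libraries in 14 (28.9% of all genes). lgg-1, the worm Atg8 protein, had 255.4, 702.8 and 296.0 CPM on daf-16 RNAi and 622.1, 762.1 and 591.5 CPM on EV. The 6 vitellogenins, yolk proteins made in the intestine, summed to 37099, 133030 and 40409 CPM on daf-16 RNAi and 85956, 70918 and 156480 CPM on EV, so that replicate 2 and EV replicate 3 were the highest of their groups. Of 7 lysosomal lipases, none passed, with a median log2 fold change of -1.36; lipl-4, long known as a DAF-16 target in germline-less worms, partly covered by other genes, had 8, 8 and 11 reads on daf-16 RNAi and 52, 81 and 12 reads on EV. Of 7 fatty acid desaturases, 6 were below 0 (median -0.38), fat-5 being the lowest in edgeR adjusted p, and none passed. Of 53 acyl-CoA and beta-oxidation genes, ech-1.1 was the only call.

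The germline, RNA interference, stress and tissue marker lists gave no call. Of 40 oocyte and early germline genes, 35 were below 0 (median log2 fold change -0.34) and 22 lay below EV without overlap (6.99% of all genes), pos-1 among them with 518.9, 542.2 and 448.8 CPM on daf-16 RNAi and 738.6, 670.7 and 599.3 CPM on EV. Of 29 genes of the RNA interference machinery, 21 were below 0, with a median of -0.09. sago-2, an Argonaute protein, was above 0 without overlap, at 1.27 ± 0.58 (log2, SE, adjusted p = 0.465, edgeR). The 11 antioxidant enzymes had a median of -0.42, the 11 small heat shock proteins -0.43, the 9 AMPK subunits -0.23 and the 5 flavin monooxygenases -0.06. Among tissue markers, the medians were 0.13 for 10 intestinal, 0.33 for 10 muscle, -0.36 for 10 pharyngeal, 0.17 for 12 neuronal, -0.25 for 10 embryonic and 2.19 for 9 hypodermal genes. The last list includes cuticle collagens. The 78 cytosolic ribosomal protein genes had a median of 0.09.

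The same treatment in N2 called 43 genes (0.248%), 42 of them lower (0.242%). Of those 42, 11 also fell in mxl-2, 31 had all mxl-2 daf-16 RNAi libraries below all EV libraries (6.99% of all genes), and 39 were below 0 in mxl-2. Their median log2 fold change was -2.32 in mxl-2 and -3.53 in N2, where the genes were chosen. Of the 16 genes that fell in mxl-2, all were below 0 in N2 as well, with a median of -3.47 in mxl-2, where they were chosen, and -2.61 in N2. The 11 shared genes were mtl-1, gst-29, cyp-35B1, T12D8.5, Y54G2A.36, Y6G8.2, nnt-1, lys-7, try-9, Y34F4.2 and chil-28. gst-29 was at -3.62 ± 0.45 in mxl-2 and -4.01 ± 0.46 in N2, and mtl-1 at -5.10 ± 0.80 in mxl-2 and -5.56 ± 0.81 in N2 (log2, SE). Those that fell in mxl-2 without passing in N2 were dod-3, hil-1, F36G9.7, spp-2 and Y48G1A.2, and for each of them the difference between the strains did not pass (adjusted p = 0.992, edgeR).

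**Figure D5:**
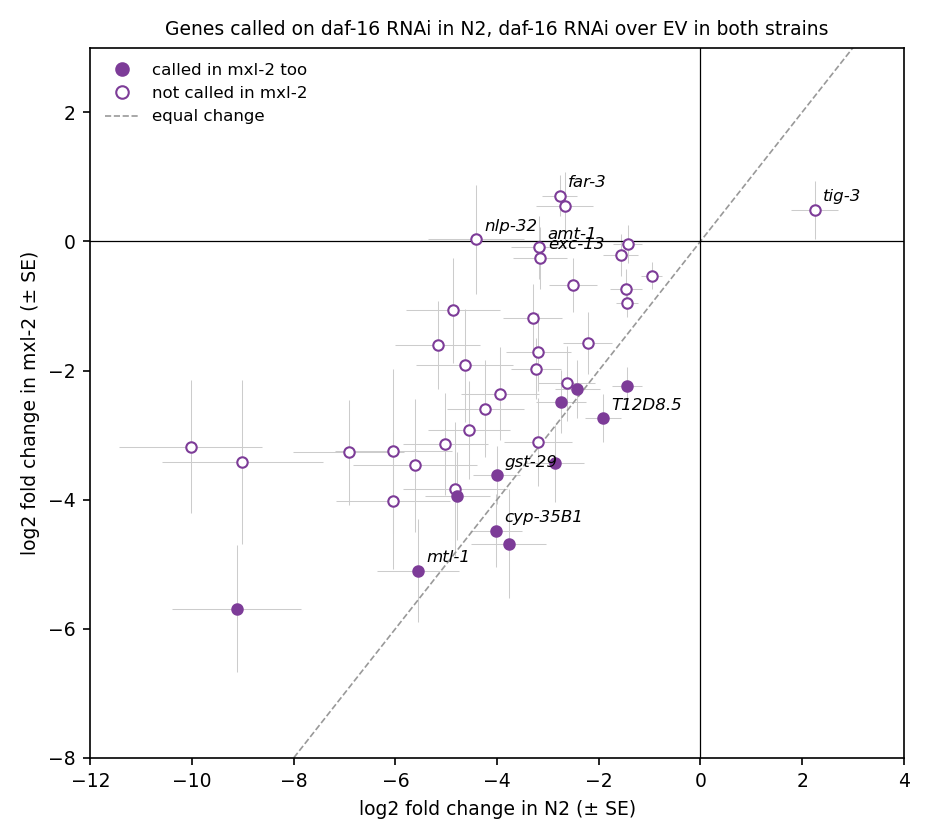
Log2 fold change of daf-16 RNAi over EV, with standard errors, in mxl-2 (vertical axis) against N2 (horizontal axis) for the 43 genes called in N2; filled points were called in mxl-2 too and the dashed line marks equal change. Most points lie below 0 in both strains, far-3, T01C3.11 and nlp-32 lie above 0 in mxl-2 and below it in N2, and values of genes with 3 or fewer reads in every daf-16 RNAi library depend on the prior count.

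The difference between the strains passed in 1 gene (0.00576% of 17354), far-3 (WBGene00001387, chromosome V, 12996787 to 12997522), which encodes a secreted fatty acid and retinol binding protein. It had 36.5, 15.7 and 36.8 CPM in mxl-2 on daf-16 RNAi and 14.1, 11.9 and 28.5 CPM in mxl-2 on EV. In N2 it had 5.515, 6.42 and 7.06 CPM on daf-16 RNAi and 62.1, 29.4 and 37.96 CPM on EV. The groups overlapped in mxl-2 and lay far apart in N2. The log2 fold change was 0.71 ± 0.32 in mxl-2 (SE, adjusted p = 0.452, edgeR) and -2.77 ± 0.34 in N2 (SE, adjusted p = 1.74e-04, edgeR), a difference of 3.48 ± 0.46 (SE, adjusted p = 0.00142, edgeR). In mxl-2, EV replicate 3 was the highest EV library and daf-16 RNAi replicate 2 the lowest of its group, and without both the change in mxl-2 was 1.50 (adjusted p = 0.00571, edgeR). Exons of its neighbour far-5 cover 7.43% of far-3. In eat-2;mxl-2, which carries the same mxl-2 allele, far-3 averaged 7.32 CPM on daf-16 RNAi and 211.6 CPM on EV. Its log2 fold change there was -4.85 ± 0.37 (SE, adjusted p = 2.01e-08, edgeR). By these labels, the lack of a fall in mxl-2 was not shared by both strains with this allele. The EV label of eat-2;mxl-2 is uncertain, however, because the pha-4 transcript runs against it. In that strain pha-4 averaged 10.4 CPM in libraries labelled pha-4 RNAi and 3.83 CPM in those labelled EV. At an unadjusted p under 0.05 the difference between mxl-2 and N2 passed in 883 genes (5.09%). Past the adjusted threshold there were 174 genes without both libraries low in sperm transcripts and 189 without daf-16 RNAi replicate 2.

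Other genes that fell in N2 and were near 0 in mxl-2 did not pass that test. amt-1, an ammonium transporter, was at -0.09 ± 0.49 in mxl-2 and -3.17 ± 0.55 in N2 (log2, SE; difference 3.09 ± 0.73, adjusted p = 0.438, edgeR). exc-13 was at -0.25 ± 0.48 in mxl-2 and -3.16 ± 0.53 in N2 (difference 2.92 ± 0.70, adjusted p = 0.438, edgeR). nlp-32, an antimicrobial peptide of the epidermis, was at 0.03 ± 0.85 in mxl-2 and -4.42 ± 0.94 in N2 (difference 4.45 ± 1.26, adjusted p = 0.535, edgeR). On EV it had only 0.0438, 0.548 and 0.174 CPM in mxl-2, against 2.29, 0.980 and 1.24 CPM in N2. A fall in mxl-2 could hardly be seen from that level. amt-1, exc-13 and nlp-32 were picked after their values were seen. Of the 6 genes that rose in mxl-2, none passed in N2, where their median was -0.16. For alh-13 the difference was 2.39 ± 0.52 (SE, adjusted p = 0.411, edgeR), with 25.7 ± 4.44 CPM in N2 on daf-16 RNAi and 27.5 ± 2.25 CPM in N2 on EV (SD, n = 3 each).

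In the libraries labelled eat-2(ad465);mxl-2(tm1516), the genes that fell in mxl-2 had a median log2 fold change of -0.21 on daf-16 RNAi. Of the 16, 2 fell and 2 rose there (9.55% of all genes were called in that strain). Of the 6 genes that rose in mxl-2, 4 fell there and none rose, with a median of -1.65. Of the 27 molting and 144 col genes, 8 and 30 fell there and none rose. Over all 17354 genes tested, 487 fell and 1171 rose in that strain. In that strain daf-16 went with the labels, averaging 43.94 CPM on daf-16 RNAi and 95.25 CPM on EV. Its log2 fold change was -1.12 ± 0.28 (SE, adjusted p = 0.0170, edgeR). The transcript of pha-4 runs against the labels there. It averaged 10.4 ± 2.54 CPM in the libraries labelled pha-4 RNAi and 3.83 ± 0.496 CPM in those labelled EV (SD, n = 3 each). The difference between eat-2;mxl-2 and mxl-2 was not tested.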

How the data were processed

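Polyadenylated RNA of whole animals was sequenced as single reads of 100 bases from a stranded library, per the labels. The authors deposited whole-number read counts per gene and TPM values for 17907 genes. The submitters' processing notes name FastQC, Trimmomatic, STAR 2.4.2a, RSEM 1.2.23, featureCounts 1.4.6-p5 and the build WBcel235, with no role or order; whether reads were counted by strand is not given in the sources used here, so overlapped genes are uncertain. Coordinates are those of the Ensembl annotation of WBcel235.

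All 33 libraries (12 groups) entered 1 edgeR 4.0.16 quasi-likelihood fit in R 4.3.3 on the deposited counts, with TMM factors and filterByExpr, which kept 17354 genes; adjustment for multiple testing (Benjamini-Hochberg) was over all genes within each comparison. The filter left out 0.00501% of the counts. CPM values are divided by TMM factors, and 1 CPM rested on 22.8 to 29.2 reads in the 6 libraries. log2 CPM used a prior count of 2. Alternatives used RLE factors, DESeq2 1.42.0, other filters, limma 3.58.1 on log2(TPM + 1), sperm transcripts as a covariate, a replicate block and fits without 1 library; the fit without both libraries low in sperm transcripts was added after seeing the data. The test was checked on simulated counts. No 2 libraries agreed within sampling noise. Replicates were separate populations; molecular identifiers are not named, so intervals cover counting error only.

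Named genes are daf-16 and the Myc network, all genes called, both DAF-16 target lists, genes called in the difference, the 8 highest and 8 lowest calls without daf-16 RNAi replicate 2 (at least 5 CPM, no overlap, with a symbol), and up to 4 members of each other list. The comparison, lists and rule were chosen with earlier results of these data known.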

Additional observations from a re-analysis of the deposited data

Results flagged for a closer look

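The response of far-3 to daf-16 RNAi differed between the strains by 3.48 log2 units (mxl-2 minus N2; adjusted p = 0.00142, edgeR), by the test of the difference itself. It was lower on daf-16 RNAi in 3 of 3 N2 libraries, below every N2 EV library, while in mxl-2 the groups overlapped. In eat-2;mxl-2, with the same mxl-2 allele, far-3 fell by 4.85 ± 0.37 on the log2 scale (SE, adjusted p = 2.01e-08, edgeR). The EV label of that strain is uncertain, since its pha-4 transcript runs against the EV and pha-4 RNAi labels. No explanation was tested.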

How the results depend on the processing

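The count of 22 calls was 464 with DESeq2, 261 with sperm transcripts as a covariate and 656 without both libraries low in sperm transcripts. It was 4 to 1118 without 1 library (5, 1118 and 4 without daf-16 RNAi replicates 1, 2 and 3; 11, 6 and 159 without EV replicates 1, 2 and 3) and 0 with the 2 groups fitted alone (edgeR; 969 at an unadjusted p under 0.05, against 1622). The share of higher calls was 27.3% in the edgeR fit of all libraries, 71.1% with DESeq2, 72.8% with the covariate and 41.7% and 48.4% with limma on log2(TPM + 1) with and without a filter. The count was 23 with RLE factors, 22 and 27 with other filters and 24 to 31 on TPM. None of 366 alternative values of the 22 genes was on the other side of 0. The difference between the strains was called in 16 genes with DESeq2, 57 with the covariate, 174 without both libraries, 0 with the groups alone (1011 unadjusted, against 883), 2 on unfiltered TPM and 1 to 189 without 1 library; far-3 was among them wherever there were any. The log2 fold change of daf-16 ran from -1.03 to -0.75. The cause of these shifts was not tested.

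With replicate number as a block, 6 genes were called, all lower. Whether the numbers pair the libraries is not known. Deviations of same-numbered libraries correlated at 0.75, -0.66 and -0.80, and not every library correlated best with its own number. The libraries low in sperm transcripts, daf-16 RNAi replicate 2 and EV replicate 3, correlated at 0.81. With a library of this kind in each group, the check cannot exclude a batch shared by number. Among the genes the naming rule took, values crossed 0 for 11, none of them called over all libraries. dod-23, at 0.14 over all libraries, was -0.22 in each of the 3 TPM fits, -0.15 with the block, -0.16 with the covariate, -0.60 without both libraries low in sperm transcripts and -1.36 to 0.90 without 1 library. dod-6, at -0.03, was 0.04 without both and -0.59 to 0.46 without 1 library. old-1, at 0.31, was -0.19 to 0.85 without 1 library. vit-3, at -0.69, was -1.47 to 0.03 and the pharyngeal phat-5, at -1.41, was -1.93 to 0.76 without 1 library. The other 6 are sperm genes, above 0 over all libraries. With the block, msp-42 was at -0.26, msp-71 at -0.02, msp-79 at -0.69, nspd-4 at -1.30, nspd-6 at -1.32 and nspd-7 at -0.99. Without 1 library, msp-79 was at -0.02 to 1.39, nspd-4 at -0.23 to 0.94, nspd-6 at -0.10 to 1.06 and nspd-7 at -0.19 to 1.00. nspd-7 was also at -0.04 on log2(TPM + 1) with and without a filter, -0.19 on log2(TPM + 0.1) and -0.02 with the covariate.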

Other observations

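Families not described above gave few or no calls. None of the 175 C-type lectins tested passed, and 6 lay without overlap above EV and 9 below, where 4.11% and 6.99% of all genes did. clec-180 had 30.4, 2.31 and 39.5 CPM on daf-16 RNAi and 1.53, 2.399 and 1.83 CPM on EV (log2 fold change 3.64 ± 0.87, SE, adjusted p = 0.0664, edgeR). clec-82 had 0.591, 0.243 and 0.562 CPM on daf-16 RNAi and 10.2, 14.4 and 1.18 CPM on EV (-4.19 ± 1.06, log2, SE, adjusted p = 0.0840, edgeR). Of 72 cytochromes P450, 49 were below 0 with a median log2 fold change of -0.25, and cyp-35B1 was the only call. Of 65 UDP-glucuronosyl transferases, 45 were above 0 (median 0.15) and none passed; ugt-16 had 4.099, 3.56 and 4.26 CPM on daf-16 RNAi and 0.569, 0.411 and 2.44 CPM on EV. Of 224 nuclear hormone receptors none passed (median -0.02); nhr-17 had 22.3, 17.7 and 21.7 CPM on daf-16 RNAi and 72.6, 78.4 and 21.1 CPM on EV, so that EV replicate 3 lay with daf-16 RNAi.

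Of 34 insulin-like peptides none passed (median -0.03). ins-23 had 7, 4 and 6 reads on daf-16 RNAi and 57, 85 and 13 reads on EV (log2 fold change -3.11 ± 0.77, SE, adjusted p = 0.0751, edgeR). Among 33 carboxylesterases, cest-1.1 had 0.985, 0.324 and 1.25 CPM on daf-16 RNAi and 6.57, 8.98 and 9.24 CPM on EV (-3.27 ± 0.82, log2, SE, adjusted p = 0.0832, edgeR), and cest-24 had 48.1, 31.95 and 46.8 CPM on daf-16 RNAi and 121.3, 117.4 and 55.2 CPM on EV (-1.21 ± 0.30, log2, SE, adjusted p = 0.0783, edgeR). fmo-2, a flavin monooxygenase, had 6.94, 69.1 and 30.97 CPM on daf-16 RNAi and 97.7, 188.8 and 19.5 CPM on EV (-1.52 ± 0.80, log2, SE, adjusted p = 0.623, edgeR), with wide overlap. The intestinal markers ges-1, an esterase, and pept-1, a peptide transporter, lay on either side of 0: ges-1 had 29.9, 32.1 and 35.1 CPM on daf-16 RNAi and 80.7, 71.7 and 61.6 CPM on EV, and pept-1 256.3, 67.5 and 263.4 CPM on daf-16 RNAi and 89.3, 71.5 and 94.4 CPM on EV. Their edgeR adjusted p were 0.283 and 0.484.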
